A study of Mus musculus with 4 samples.

Results

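Genes for pre-mRNA splicing factors were followed in mouse embryonic stem cells in which Chd4, a chromatin remodelling ATPase of the NuRD complex, was depleted by RNA interference. The members were the probe sets whose platform annotation gives 1 gene symbol that starts with Srsf, Hnrnp, Sf3a, Sf3b, Snrp or Prpf, without the imprinted gene Snrpn. This gave 170 probe sets for 58 genes, out of 45037 non-control probe sets and 18193 genes with a probe set of 1 symbol. A further 10 probe sets name a member gene together with another gene, mostly a gene model of a near-identical copy, and were not counted as members. The prefix, not a measured value, chose the members.

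Transcript levels came from 4 single-colour Affymetrix arrays. The cells were J1 embryonic stem cells of the line Chd4i-1, which carries a Tet-on RNAi construct against Chd4, and were kept on gelatin in serum with leukaemia inhibitory factor. The control group (n = 2 arrays) had no doxycycline, and the knockdown group (n = 2) had 5 ng/ml doxycycline for 3 days. Both groups carry the construct, all arrays come from 1 line, and no doxycycline-treated line without the construct was analysed here, so effects of doxycycline, of RNAi as such and of Chd4 loss cannot be told apart. The submitters call the arrays of a group biological duplicates.

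Splicing removes introns from pre-mRNA on the spliceosome, which is built from small nuclear ribonucleoproteins (snRNPs) and many other proteins. The Sm proteins (Snrp genes) form the ring around the snRNAs, SF3A and SF3B place the U2 snRNP on the branch point, and several Prpf proteins belong to the U4/U6.U5 tri-snRNP that activates the complex. SR proteins (Srsf genes) and hnRNP proteins bind pre-mRNA and promote or repress the use of nearby exons. Many SR and hnRNP genes tune their own mRNA level through alternative exons that lead to decay of the transcript, and many have alternative 3' ends, so probe sets of 1 gene need not measure the same transcripts.

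A value below is the signal of a probe set on a linear scale, as the submitters computed it with MAS5. How they scaled the arrays is not given in the sources used here, and the median signals of the arrays lay between 73.4 and 79.4. A difference is log2 signal in the knockdown minus log2 signal in the control, with its standard error (SE), and was tested in limma over 27022 probe sets. A probe set was called where its p value, adjusted by Benjamini-Hochberg over all of them, was under 0.05. Levels of different probe sets are not comparable, since each binds with its own strength. The brightest probe set of a gene, by mean log2 signal over the 4 arrays, stands for the gene where 1 value per gene is needed.

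Chd4 was lower in the knockdown at each of its 3 probe sets, at 48.5% to 65.0% of control (adjusted p = 0.000244 to 0.00638). All 8 markers of embryonic stem cells in the list used (Pou5f1, Sox2, Nanog and others) lay between signals of 2769 and 28361 on every array. In limma 3 of these 8 were called, Esrrb lower (log2 -0.29) and Dppa5a and Utf1 higher (0.19 and 0.31). Of 7 fibroblast markers 5 stayed under the median signal of the non-control probe sets (71.8) on every array, with the collagen genes Col1a1 and Col3a1 between 11.2 and 40.8. Thy1 was called higher, with 176 and 200 becoming 601 and 547 (log2 1.61, adjusted p = 7e-05). The summed signal of the fibroblast list was 322 to 400 in the controls and 666 to 771 in the knockdown, of which Thy1 made up 176 to 200 and 547 to 601. That of the 5 trophectoderm markers was 1494 to 1510 and 3256 to 3469, of which Tfap2c made up 1115 to 1229 and 2947 to 3200. The sum for 6 primitive endoderm markers was 316 to 353 and 339 to 403, and for 5 neural markers 1600 to 1658 and 1737 to 1739, with 0 and 1 of them called. The part of these markers in the results below was not tested, and in bulk RNA fewer cells of a type and less RNA per cell cannot be told apart.

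In most splicing factor genes no probe set was called, and the called changes were mostly small, with more probe sets called lower than higher. Of 164 member probe sets bright enough to be tested, 27 fell and 6 rose, or 20.1% in all, where 14.2% of all tested probe sets were called. By direction the background was 6.77% for lower and 7.46% for higher. The members are bright, and in that range calls are more frequent: among 123 members with a mean signal of 1000 or more 30 were called (24.4%), against 25.4% of all probe sets that bright. The share of members called is thus near that of other bright probe sets. By direction there were 24 lower and 6 higher among those members, and 12.3% lower and 13.1% higher among all. The median difference of the 164 members was -0.053, with an interquartile range from -0.19 to 0.057, and the median over all tested probe sets was -0.012. With 1 value per gene, at the brightest probe set, the median was 0.012, with 31 genes above 0 and 27 below, against 0.014 over all genes, so the sign of the median depends on which probe sets are counted. Only 3 called members (Sf3b6 1436681_x_at, Hnrnpk 1454692_x_at and Snrpd3 1449629_s_at) changed at least 1.5-fold, where 6.39% of all tested probe sets were called with such a change. Of these 3 only the Sf3b6 probe set had a mean signal of 1000 or more. In that range it was 1 of 123 members, against 225 of 6801 probe sets. Groups did not overlap for 100 of the 164 members (61.0%), against 55.9% of all, and 51 members had an unadjusted p under 0.05, against 28.3% of all. At a mean signal of 1000 or more, groups did not overlap for 63.4% of members, against 68.0% of all probe sets that bright. An unadjusted p under 0.05 in limma was found for 45 of those 123 members and 2946 of those 6801 probe sets.

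**Figure D1:**
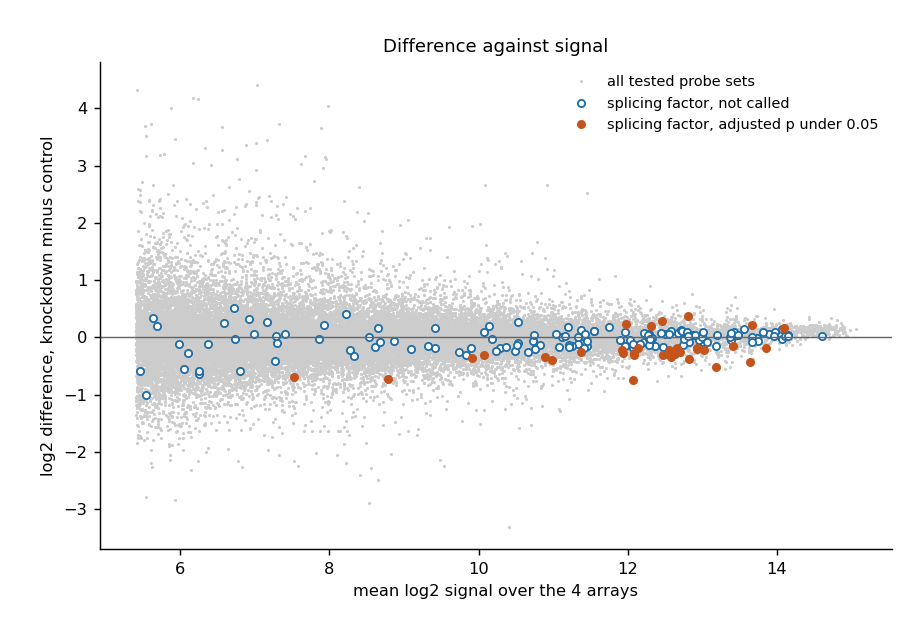
The plot sets the log2 difference (knockdown minus control) of each of the 27022 tested probe sets (grey) against its mean log2 signal over the 4 arrays, with the 164 splicing factor probe sets on top, filled where the adjusted p was under 0.05. The members lie mostly at the bright end, with a median signal of 3952, and 27 of the 33 filled points are below 0.

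Of the 58 genes, 22 had at least 1 called probe set: 19 had at least 1 called lower, 4 had at least 1 called higher, and Hnrnpdl had both. Such a count grows with the number of probe sets per gene, and its share over all genes by direction is not given here. Among genes with 2 or more tested probe sets, 18 of 41 members had a call, against 1688 of 5933 over the array. With only probe sets of a mean signal of 1000 or more, these were 16 of 31 and 540 of 1343. At the brightest probe set 10 genes fell and 3 rose, or 22.4%, where 18.1% of 12615 genes were called at their brightest probe set (7.79% lower and 10.3% higher). The 10 that fell were Prpf4b, Srsf10, Prpf8, Hnrnpr, Hnrnph2, Sf3a3, Snrpf, Sf3b6, Srsf1 and Prpf19, with differences from -0.40 to -0.16. The 3 that rose were Srsf9, Hnrnpdl and Hnrnpc, with differences from 0.16 to 0.29. In the other 36 genes no probe set was called, which does not show that they were unchanged. Tested on simulated arrays with the spread of these data, the fit recovered 14% of probe sets changed by 1.2-fold and 50% of those changed by 1.5-fold. Only 50 probe sets per fold size were changed there, drawn from all signals (median 284 over the array, 3952 for the members). With so few changes the adjusted threshold is stricter than in these data, where 3847 probe sets were called. These shares are therefore not the power for the members.

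Of the 33 called members, 11 (10 lower, 1 higher) stayed called in each of the 4 fits that left out 1 array. Leaving out control replicate 1 or 2 gave 16 or 13 called members (with 9.97% and 9.24% of all probe sets called), and leaving out knockdown replicate 1 or 2 gave 24 or 32 (11.9% and 13.3%). With a variance model that had no intensity trend, limma called 0 members and 0 of all 27022 probe sets. At an unadjusted p under 0.05 it had 23 members (4 higher, 19 lower), and 5828 of all probe sets (2893 higher, 2935 lower).

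**Figure D2:**
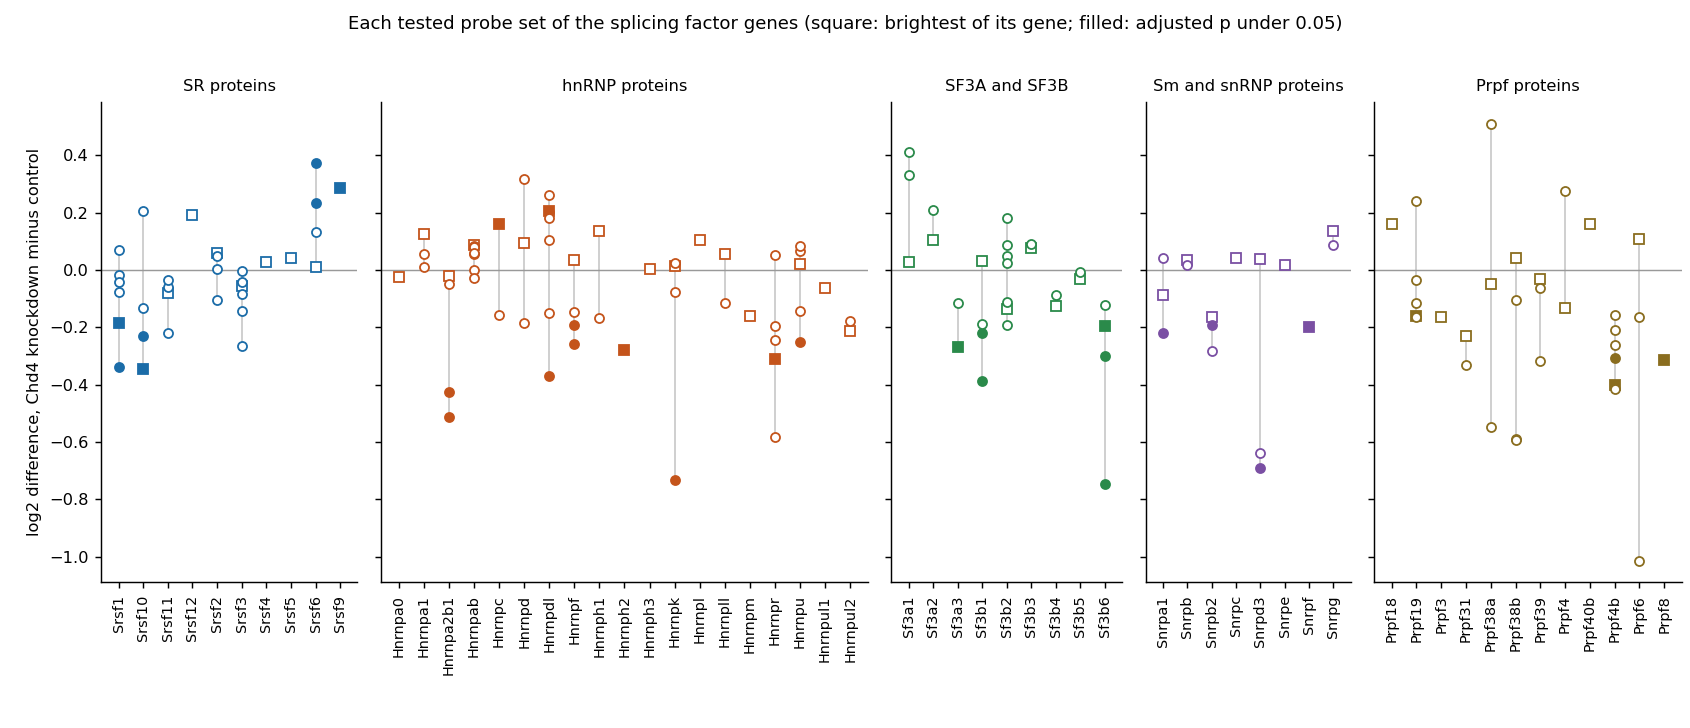
Each point is 1 tested probe set of a splicing factor gene, placed by gene (columns, in 5 families) and by its log2 difference, knockdown minus control. Squares mark the brightest probe set of a gene, filled symbols an adjusted p under 0.05, and grey lines join the probe sets of a gene. The probe sets lie far apart in Hnrnpk, where the outlying one is its dimmest, and in Sf3b6 and Hnrnpdl. They do so too in Prpf6, Prpf38a and Snrpd3, among others, where the outlying probe sets are dim.

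The SR proteins, which bind exonic enhancers and recruit the spliceosome, moved in both directions. Of 32 tested probe sets for 10 genes, 3 rose and 4 fell (21.9%, against 14.2% over the array and 25.4% of its probe sets with a mean signal of 1000 or more), with a median difference of -0.039. At the brightest probe set 6 of the 10 genes lay above 0 and the median was 0.019. Srsf9 has 1 probe set, which read 5242 and 5001 (control) against 6428 and 6056 (knockdown). Both knockdown arrays lay above both controls, a rise of 1.22-fold (log2 0.29 ± 0.059 SE, adjusted p = 0.00849). The call ended without control replicate 2 (0.25, adjusted p = 0.0539). Srsf6 was higher at 2 of its 4 probe sets. At 1416721_s_at the arrays read 6674 and 5988 (control) against 7742 and 8656 (knockdown) (log2 0.37 ± 0.070, adjusted p = 0.00509), and 1447898_s_at went from 3759 and 3656 to 4425 and 4294 (0.23 ± 0.060, adjusted p = 0.0245). The second of these calls ended without control replicate 1 or 2 or knockdown replicate 1, at an adjusted p of up to 0.123. The brightest probe set of Srsf6, 1448454_at, read 8107 and 8110 (control) against 8165 and 8158 (knockdown), a difference of 0.0095 ± 0.050 (adjusted p = 0.929).

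Srsf10, an SR protein known for repressing splicing when dephosphorylated, and Srsf1, the founding member of the family, were lower at 2 probe sets each. The brightest probe set of Srsf10 dropped to 78.6% of control, from 6593 and 7169 to 5526 and 5288 (log2 -0.35 ± 0.061 SE, adjusted p = 0.00339). Its second called probe set, 1418527_a_at, was at 85.3% of control (adjusted p = 0.0317), and 1 of its 4 probe sets, 1449121_at, had the opposite sign (0.20 ± 0.12, adjusted p = 0.285). When the probe sets of Srsf10 were averaged the difference was -0.13 (adjusted p = 0.196), without a call. Srsf1 read 16401 and 15282 (control) against 13722 and 14147 (knockdown) at 1428099_a_at, its brightest (-0.18 ± 0.051, adjusted p = 0.0330), and 2133 and 2150 against 1670 and 1721 at 1428100_at (-0.34 ± 0.073, adjusted p = 0.0102). Its other 4 tested probe sets had differences between -0.077 and 0.070 and were not called, and the average of all its probe sets, a dim untested one included, was not called either (-0.26, adjusted p = 0.0934). The calls of 1418527_a_at (Srsf10) and of both Srsf1 probe sets ended when single arrays were left out: the former without control replicate 1 or 2 or knockdown replicate 1 (adjusted p up to 0.20), Srsf1 1428099_a_at without control replicate 1 or knockdown replicate 1 (up to 0.246), and 1428100_at without control replicate 2 (0.0502).

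The remaining SR genes had no called probe set. All 6 probe sets of Srsf3 lay below 0, between -0.26 and -0.0027, and all 4 of Srsf11 between -0.22 and -0.036. Srsf2 (4 probe sets, -0.10 to 0.060), Srsf4 (0.028 ± 0.077 SE) and Srsf5 (0.043 ± 0.052) had differences close to 0. For Srsf5, with signals of 10708 and 11258 against 11561 and 11063, the 95% interval of the difference ran from -0.071 to 0.16. Srsf12 was dim, at 33.0 to 70.3, and its interval ran from -0.87 to 1.25.

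The promoters of the genes with the largest called differences at the brightest probe set are given here: those of the 2 that fell most and of the 2 that rose most. The sequences are the 250 bases before the annotated start, 5' to 3' on the gene's strand, from RefSeq (GRCm38.p6). Prpf4b, at chr13:34875279-34875528 (plus strand), and Srsf10, at chr4:135855821-135856070 (plus strand), fell. Srsf9, at chr5:115326927-115327176 (plus strand), and Hnrnpdl, at chr5:100039223-100039472 (minus strand), rose. Capitals mark matches on either strand to the ETS core CCGGAAG, the E-box CACGTG, the GC box GGGCGG and the CCAAT box, and no matches overlap in these windows.
Prpf4b: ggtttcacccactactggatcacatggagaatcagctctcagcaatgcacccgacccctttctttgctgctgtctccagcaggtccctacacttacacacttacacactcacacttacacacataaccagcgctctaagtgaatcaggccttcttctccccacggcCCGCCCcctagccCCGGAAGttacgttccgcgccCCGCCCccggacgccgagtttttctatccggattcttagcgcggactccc
Srsf10: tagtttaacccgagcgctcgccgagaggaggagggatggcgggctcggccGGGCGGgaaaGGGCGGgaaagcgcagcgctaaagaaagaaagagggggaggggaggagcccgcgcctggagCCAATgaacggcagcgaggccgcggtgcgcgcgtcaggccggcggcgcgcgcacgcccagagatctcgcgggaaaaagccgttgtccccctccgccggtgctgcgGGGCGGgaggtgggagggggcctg
Srsf9: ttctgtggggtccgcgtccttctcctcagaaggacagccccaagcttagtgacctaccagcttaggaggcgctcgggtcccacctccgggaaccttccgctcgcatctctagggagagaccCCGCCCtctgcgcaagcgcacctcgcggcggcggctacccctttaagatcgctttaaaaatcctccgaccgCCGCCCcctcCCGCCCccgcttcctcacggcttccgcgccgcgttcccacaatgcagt
Hnrnpdl: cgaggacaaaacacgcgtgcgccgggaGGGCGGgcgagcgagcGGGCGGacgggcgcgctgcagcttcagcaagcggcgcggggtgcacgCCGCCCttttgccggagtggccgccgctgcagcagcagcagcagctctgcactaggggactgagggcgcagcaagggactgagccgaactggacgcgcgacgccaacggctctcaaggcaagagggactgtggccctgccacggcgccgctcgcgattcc

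GC boxes were found in all 4 windows, 2 in Prpf4b and 3 in each of the others. Prpf4b also held 1 ETS core and Srsf10 held 1 CCAAT box, and the E-box letters were in none of the 4. RefSeq had 68 windows for 52 of the 58 genes. The ETS core was in 21 of these (30.9%), against 6.91% of 32851 windows of all genes, and the GC box was in 44 (64.7%) against 32.7%. The CCAAT box was in 33 (48.5%) against 33.8%, and the E-box in 5 (7.35%) against 6.02%. The windows of all genes were not limited to genes as bright as the members, and 1 gene can have several windows. These shares are therefore not like for like and do not show a trait particular to splicing factors. Of the 12 windows of the genes that fell at their brightest probe set 4 held the ETS core, and of the 3 windows of those that rose 0 did. A match describes letters in a window and is not evidence of a bound site.

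The hnRNP proteins, which coat nascent transcripts and often repress exons, gave 3 rises and 9 falls among 56 tested probe sets of 19 genes (21.4%, against the same 14.2% and 25.4%), with a median difference of -0.011. At the brightest probe set 2 genes rose and 2 fell, 12 of the 19 lay above 0 and the median was 0.022. The clearest falls were in Hnrnpa2b1, which encodes an RNA-binding protein of splicing and RNA transport, but at only 2 of its 4 probe sets. At 1434047_x_at the arrays read 11270 and 10976 (control) against 7733 and 7846 (knockdown), or 70.0% of control (log2 -0.51 ± 0.050 SE, adjusted p = 8.23e-05). At 1433829_a_at they went from 14754 and 14808 to 10923 and 11065, or 74.4% (-0.43 ± 0.046, adjusted p = 0.000165). The knockdown arrays lay well below the controls at both, and both calls stood in each fit that left out an array. In contrast 1420365_a_at, the brightest, read 17111 and 17472 (control) against 17510 and 16564 (knockdown) (-0.022 ± 0.047, adjusted p = 0.817), and 1433830_at differed by -0.050 ± 0.059 (adjusted p = 0.639).

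Hnrnpk, which encodes a protein that binds C-rich RNA, also differed between its probe sets. Its dimmest probe set, 1454692_x_at, fell from 547 and 591 to 349 and 337, or 60.3% of control (log2 -0.73 ± 0.13 SE, adjusted p = 0.00327). Its other 3 probe sets differed by -0.077 to 0.023, and 1460547_a_at, the brightest, read 17285 and 17918 against 18253 and 17304. Hnrnpf, whose product binds G-rich RNA, fell at 1437099_x_at (7027 and 7528 to 5977 and 6188, 83.6% of control, adjusted p = 0.0123) and at 1450963_at (87.5%, adjusted p = 0.0301), but its brightest probe set differed by 0.035 ± 0.048 (adjusted p = 0.696). The first Hnrnpf call ended without control replicate 2 (adjusted p = 0.0998), and the second without control replicate 1 or 2 or knockdown replicate 1 (up to 0.140). Hnrnph2, a close relative of Hnrnpf with 1 probe set, fell from 4521 and 4145 to 3619 and 3520 (82.4%, adjusted p = 0.0157), a call that ended without control replicate 1 (-0.22, adjusted p = 0.128). Hnrnpr fell at its brightest probe set from 4759 and 4881 to 3702 and 4078 (80.6%, adjusted p = 0.00910), a call that ended when its 5 probe sets were averaged (-0.26, adjusted p = 0.102). The next 2 probe sets of Hnrnpr lay below 0 as well, at -0.20 ± 0.077 and -0.24 ± 0.11, without a call. Hnrnpu, which encodes a nuclear scaffold protein, was called at 1 of 5 probe sets, 1434390_at (84.0% of control, adjusted p = 0.0280), a call that ended without control replicate 1 or 2 or knockdown replicate 1 (adjusted p up to 0.144). The 3 brighter probe sets of Hnrnpu had differences of 0.022 to 0.085, the brightest of them with 18807 and 17329 against 18475 and 18174.

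Hnrnpdl, a relative of Hnrnpd that is known to regulate its own splicing, was the 1 member gene with probe sets called in opposite directions. This was 1 of 41 member genes with 2 or more tested probe sets (2.44%), against 36 of 5933 over the array (0.607%). Among probe sets with a mean signal of 1000 or more it was 0 of 31, against 19 of 1343 (1.41%). Its brightest probe set rose from 12023 and 12060 to 13673 and 14124 (log2 0.21 ± 0.047 SE, adjusted p = 0.0139) and 1424252_at rose from 4731 and 4772 to 5648 and 5297 (0.20 ± 0.059, adjusted p = 0.0415). In the same arrays 1428224_at fell from 1101 and 1087 to 902 and 796 (-0.37 ± 0.098, adjusted p = 0.0283). The groups of each of the 7 Hnrnpdl probe sets did not overlap, with 5 higher and 2 lower. Over the array 55.9% of tested probe sets had no overlap, and 68.0% of those with a mean signal of 1000 or more. The average of the 7 differed by 0.063 (adjusted p = 0.468). All 3 calls ended without control replicate 1 or 2, at adjusted p values from 0.0596 to 0.149, and 1424252_at and 1428224_at also without a knockdown array (0.182 without replicate 1 and 0.124 without replicate 2). Hnrnpc, which binds uridine tracts and keeps cryptic exons out, rose at its brightest probe set from 16765 and 16418 to 19113 and 18028 (1.12-fold, adjusted p = 0.0431). That call did not hold without control replicate 1 or 2 or knockdown replicate 1 (adjusted p up to 0.188), nor under quantile normalization (0.096, adjusted p = 0.149), and the other tested probe set of Hnrnpc differed by -0.16 ± 0.069.

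Hnrnpa1, a repressor of many exons, had differences of 0.012 to 0.13 at 3 probe sets, none called. The 3 probe sets shared by Hnrnpa1 and its near-identical copies differed by 0.048 to 0.091. Of 4 probe sets shared by Hnrnpa3 and a copy, 2 were called lower (-0.30 ± 0.062 SE, adjusted p = 0.00863, and -0.26 ± 0.061, adjusted p = 0.0156), while the 2 others differed by -0.051 and 0.12. Hnrnpab, with 7 probe sets between -0.027 and 0.088, Hnrnpa0 (-0.026) and Hnrnph3 (0.0044) were not called. Hnrnpd (-0.18 to 0.32 at 3 probe sets), Hnrnph1 (-0.17 and 0.14), Hnrnpl (0.10), Hnrnpll (-0.12 and 0.055), Hnrnpul1 (-0.063) and Hnrnpul2 (-0.21 and -0.18) had no call either, nor had Hnrnpm (-0.16 ± 0.056, adjusted p = 0.0811), although its groups did not overlap.

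In the U2 snRNP factors SF3A and SF3B, 6 of 28 tested probe sets fell and 0 rose (21.4%, against 14.2% over the array and 25.4% of its probe sets with a mean signal of 1000 or more). The 6 belong to 3 genes, Sf3b6, Sf3b1 and Sf3a3, and at the brightest probe set 2 of 9 genes were called. At an unadjusted p under 0.05 in the same limma fit 6 of the 28 were lower and 2 higher, against 28.3% of all probe sets in either direction. Sf3b6, which encodes the small subunit that contacts the branch point, fell at 3 of its 4 probe sets and the remaining, dim one had a difference of -0.12. At 1436681_x_at the arrays read 5473 and 5713 (control) against 3772 and 2945 (knockdown), or 59.6% of control (log2 -0.75 ± 0.096 SE, adjusted p = 0.000489). At 1417054_a_at they went from 6952 and 7106 to 5424 and 6008 (81.2%, adjusted p = 0.00832) and at the brightest, 1417055_at, from 6838 and 6981 to 6002 and 6074 (87.4%, adjusted p = 0.0325). The last of these calls ended in every fit that left out 1 array (adjusted p from 0.0561 to 0.159), while the other 2 stood in all 4.

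Sf3b1, the large subunit of SF3B, fell at 1440818_s_at from 7936 and 8557 to 6134 and 6485, or 76.5% of control (log2 -0.39 ± 0.059 SE, adjusted p = 0.00157). It also fell at 1418562_at from 8837 and 9082 to 7654 and 7741 (85.9%, adjusted p = 0.0152), a call that ended without control replicate 2 (adjusted p = 0.0974). Its brightest probe set, 1449138_at, read 11194 and 11363 against 11190 and 11871, a difference of 0.031 ± 0.051. Sf3a3, an SF3A subunit, fell from 4645 and 4858 to 3878 and 4015 (83.1%, adjusted p = 0.0130), with its other probe set at -0.12 ± 0.059, and this call ended without control replicate 2 (adjusted p = 0.0882). The other SF3A subunits, Sf3a1 and Sf3a2, had every tested probe set above 0 (0.029 to 0.41), none called. The largest was at a dim probe set of Sf3a1, with 252 and 269 against 355 and 336 (adjusted p = 0.101). Sf3b2 (7 probe sets, -0.19 to 0.18), Sf3b3 (0.077 and 0.091), Sf3b4 (-0.13 and -0.086) and Sf3b5 (-0.031 and -0.0082) had no called probe set.

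Of the Sm and other snRNP proteins, 4 of 16 tested probe sets fell and 0 rose (25%, against 14.2% over the array and 25.4% of its probe sets with a mean signal of 1000 or more). At an unadjusted p under 0.05 in limma 5 of the 16 were lower and 1 higher, against 28.3% of all probe sets in either direction. At the brightest probe set 1 of the 8 genes was called (12.5%, against 18.1% of all genes). This was Snrpf, a subunit of the Sm ring, which fell from 8404 and 8284 to 7177 and 7377, or 87.2% of control (log2 -0.20 ± 0.052 SE, adjusted p = 0.0266). The ring subunits Snrpe and Snrpg were not called. Snrpe, the brightest member of the family, read 24037 and 25576 (control) against 24876 and 25342 (knockdown) (0.018 ± 0.046, 95% interval -0.082 to 0.12). Snrpg read 16551 and 16302 against 18189 and 17937, with no overlap but an adjusted p of 0.0627 (0.14 ± 0.044). Both U2 snRNP proteins had 1 probe set called lower, Snrpa1 at 85.9% of control (adjusted p = 0.0231) and Snrpb2 at 87.5% (adjusted p = 0.0488). Snrpd3, another ring subunit, fell at a dim probe set, 1449629_s_at, from 228 and 241 to 138 and 153 (61.9%, adjusted p = 0.0390), whereas its brightest read 9162 and 9367 against 9741 and 9310 (0.040 ± 0.051). None of the 4 calls in this family stood in every fit that left out 1 array: all ended without control replicate 1 or 2, those of Snrpf, Snrpb2 and Snrpd3 also without knockdown replicate 1 and those of Snrpa1 and Snrpb2 without knockdown replicate 2, with adjusted p values of up to 0.129 (Snrpf), 0.141 (Snrpa1), 0.229 (Snrpb2) and 0.180 (Snrpd3). A probe set shared by Snrpd1 and a copy was called lower too (-0.21 ± 0.057, adjusted p = 0.0285), and those shared by Snrpa (-0.074) and Snrpd2 (-0.12) with copies were not. Snrpb and the U1 protein gene Snrpc differed by 0.016 to 0.041 and were not called.

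Of 32 tested probe sets of the Prpf genes 4 were called, all lower (12.5%, against 14.2% over the array). Differences lay below 0 at 25 of the 32 (13900 of 27022 over the array), with a median of -0.16. These probe sets are several per gene, and at the brightest probe set 8 of 12 genes lay below 0, with a median of -0.092. At an unadjusted p under 0.05 limma had 7 lower and 0 higher of the 32. Over the array 28.3% of probe sets had such a p, 3735 lower and 3911 higher of 27022. Prpf8, the core protein of the spliceosome's active site, has 1 probe set, at 80.4% of control, with 6283 and 6345 against 5045 and 5109 (log2 -0.31 ± 0.055 SE, adjusted p = 0.00321). The arrays of a group differed by far less than the groups, and the call stood in all 4 fits that left out an array. Prpf4b, a kinase that phosphorylates tri-snRNP proteins, differed in the downward direction at each of its 6 probe sets (-0.41 to -0.16), of which 2 were called. At the brightest the arrays read 2399 and 2245 against 1846 and 1677 (75.8% of control, adjusted p = 0.00666), a call that stood without any 1 array but ended when the probe sets of Prpf4b were averaged (-0.29, adjusted p = 0.0638). At 1425497_a_at they were 1235 and 1166 against 997 and 944 (80.8%, adjusted p = 0.0426), a call that ended in each of those fits (adjusted p from 0.0566 to 0.209). Prpf19, the ubiquitin ligase that names the Prp19 complex, was called at 1 of 5 probe sets at the edge of the threshold (11339 and 11634 to 10416 and 10131, 89.4%, adjusted p = 0.0499), and this call too ended in all 4 fits (adjusted p from 0.0649 to 0.233) and when its probe sets were averaged (-0.047, adjusted p = 0.715). Prpf31 had both probe sets below 0 with no overlap (-0.23 ± 0.10 and -0.33 ± 0.16) and no call. Prpf6 differed by 0.11 ± 0.065 at its brightest probe set and by -1.01 ± 0.50 at a dim one with signals of 22.8 to 71.9. Prpf3 (-0.16 ± 0.078), Prpf4, Prpf18, Prpf38a (the widest positive difference of the family, 96.2 and 80.4 against 114 and 137 at a dim probe set), Prpf38b, Prpf39 and Prpf40b had no called probe set.

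Probe sets of 1 gene often lay on both sides of 0, in the members and over the array, where a sign was counted however small the difference. Among genes with 2 or more tested probe sets, the median range of differences within a gene was 0.306 for members and 0.311 over the array. With only probe sets of a mean signal of 1000 or more, it was 0.145 and 0.131. Of 41 member genes with 2 or more tested probe sets, 19 (46.3%) had all of them on 1 side of 0, 12 below and 7 above, against 55.3% of 5933 genes on the array. The member genes had more probe sets each (a mean of 3.59 against 2.77), so these shares are not like for like. Among genes with exactly 2 tested probe sets, a split chosen after the values were seen, it was 9 of 13 (69.2%) against 66.5% of 3240. Among probe sets with a mean signal of 1000 or more it was 17 of 31 (54.8%), against 64.1% of 1343 genes. In 18 of the 41 genes at least 1 probe set was called, and in none of the 18 were all tested probe sets called in 1 direction. Over the array 240 of the 1688 genes with a call had that. Of those 240 genes 186 had exactly 2 tested probe sets, as did only 2 of the 18 member genes, so these counts are not like for like either. Among probe sets with a mean signal of 1000 or more, 1 of 16 member genes with a call had all called in 1 direction, against 141 of 540 over the array. In 9 genes the brightest probe set was not called while another was: Srsf6, Hnrnpa2b1, Hnrnpf, Hnrnpk, Hnrnpu, Sf3b1, Snrpa1, Snrpb2 and Snrpd3. The share of all genes with such a pattern is not given here. When the probe sets of each gene were averaged, 9 member genes were called, 8 lower and 1 higher. The share of all genes called in that fit is not given here, so whether 9 is many cannot be read from it. These averages called Hnrnpa2b1 (-0.25, adjusted p = 0.00857), Hnrnpk (-0.19, adjusted p = 0.0355) and Snrpd3 (-0.43, adjusted p = 0.0340) lower.

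The difference between probe sets was itself tested within each array, as the signal of a probe set over that of the brightest probe set of its gene. Over the array 1.11% of 10491 such ratios changed between the groups in limma, and of 106 ratios of the members 5 did (4.72%). Among probe sets with a signal of 418 or more (from the mean log2 value) it was 2.33% of 3645 over the array and 5 of 77 members (6.49%). All member probe sets above that signal had a median of 4978, against 1268 over the array. These shares are therefore not matched for brightness, nor for the number of probe sets per gene. The ratio fell for Hnrnpa2b1 1434047_x_at (difference -0.49 ± 0.066 SE on the log2 scale, adjusted p = 0.00404) and 1433829_a_at (-0.41 ± 0.060, adjusted p = 0.00709), which share the same brightest probe set. It fell for Sf3b1 1440818_s_at (-0.42 ± 0.069, adjusted p = 0.0117), for Sf3b6 1436681_x_at (-0.55 ± 0.11, adjusted p = 0.0295) and for Hnrnpk 1454692_x_at (-0.74 ± 0.16, adjusted p = 0.0470). Srsf6 1416721_s_at (0.36 ± 0.080, adjusted p = 0.0503) and Hnrnpdl 1428224_at (-0.58 ± 0.13, adjusted p = 0.0556) came next and missed the threshold. No ratio was called without control replicate 1 or without control replicate 2 (lowest adjusted p = 0.117 and 0.0649, with 19 and 16 at an unadjusted p under 0.05), whereas 8 and 7 were without knockdown replicate 1 and 2. All 5 probe sets have names ending in _x_at, _s_at or _a_at, which in the maker's naming mark probes shared with other sequences or with several transcripts, and without such probe sets 0 of 40 ratios were called (lowest adjusted p = 0.0554, with 6 at an unadjusted p under 0.05).

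**Figure D3:**
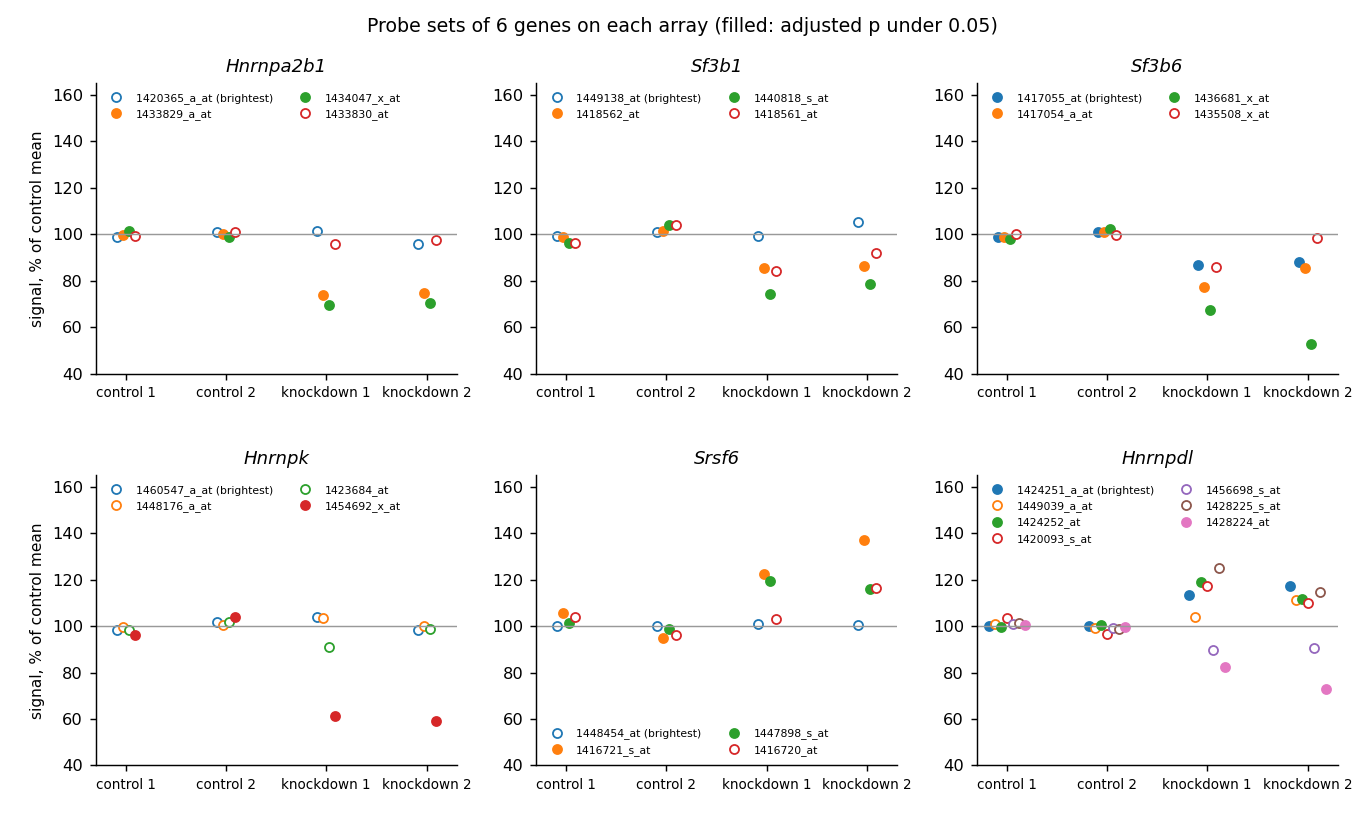
Signals of every tested probe set of 6 genes on each of the 4 arrays, as a percentage of the geometric mean of that probe set in the 2 controls, with filled points for an adjusted p under 0.05. In Hnrnpa2b1, Sf3b1 and Hnrnpk the brightest probe set stays near 100% in the knockdown. Called falls are at 2 other probe sets each in Hnrnpa2b1 and Sf3b1, and in Hnrnpk only at the dimmest. In Hnrnpdl probe sets move both up and down.

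Genes of the pathway outside the member families moved in both directions. Of 129 listed genes, 114 were tested at their brightest probe set, of which 8 rose and 10 fell (15.8%, against 18.1% of all genes), with a median difference of -0.018. Proteins of the U1 snRNP (4 tested) and of the tri-snRNP (10 tested) had 0 calls in limma (0 and 3 at an unadjusted p under 0.05). Esrp1, the epithelial regulator of alternative exons, had the largest difference, from 317 and 352 in the controls to 859 and 889 in the knockdown, a rise of 2.61-fold (log2 1.39 ± 0.12 SE, adjusted p = 3.53e-05). Khdrbs1 (Sam68), an RNA-binding regulator of exon choice, was called higher (0.42 ± 0.067, adjusted p = 0.00193) but differed by -0.067 (adjusted p = 0.796) when its probe sets were averaged. Rbm5, a regulator of apoptosis genes, and Lsm6, of the ring on U6 snRNA, rose by 0.41 ± 0.066 and 0.40 ± 0.073 (adjusted p = 0.00195 and 0.00401), and these calls ended when probe sets were averaged (0.21 each, adjusted p = 0.247 and 0.128). Clk1, a kinase of SR proteins, rose by 0.27 ± 0.073 (adjusted p = 0.0299), a call that ended without control replicate 1 (adjusted p = 0.140) or knockdown replicate 1 (a difference of 0.17, adjusted p = 0.164). Gemin5, of the complex that assembles Sm rings, rose by 0.25 (adjusted p = 0.0469), but not in any fit that left out 1 array (adjusted p from 0.0738 to 0.197).

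The largest falls outside the families were in the minor spliceosome, which removes a rare class of introns. Rnpc3, a protein of the U11/U12 di-snRNP, went from 1644 and 1806 to 974 and 1269 (log2 -0.63 ± 0.12 SE, adjusted p = 0.00458), and Snrnp48, of the same particle, from 2785 and 2768 to 1824 and 1791 (-0.62 ± 0.069, adjusted p = 0.000196). The other 5 of its 7 listed genes were not called, and the Snrnp48 call ended when its probe sets were averaged (-0.20, adjusted p = 0.11). Fubp1 fell by 0.44 on the log2 scale (adjusted p = 0.000293), and likewise had no call as an average (-0.066, adjusted p = 0.635). Isy1 and Crnkl1, proteins of the activated spliceosome, and Srrm1, a partner of SR proteins, fell by 0.31, 0.29 and 0.31 (adjusted p = 0.0475, 0.0149 and 0.0183). Isy1 was not called in any fit that left out 1 array (adjusted p from 0.0970 to 0.204), Crnkl1 not without control replicate 1 or 2 (0.0643 and 0.0626), and Srrm1 not without control replicate 1 (0.115) or knockdown replicate 2 (0.0761).

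**Figure D4:**
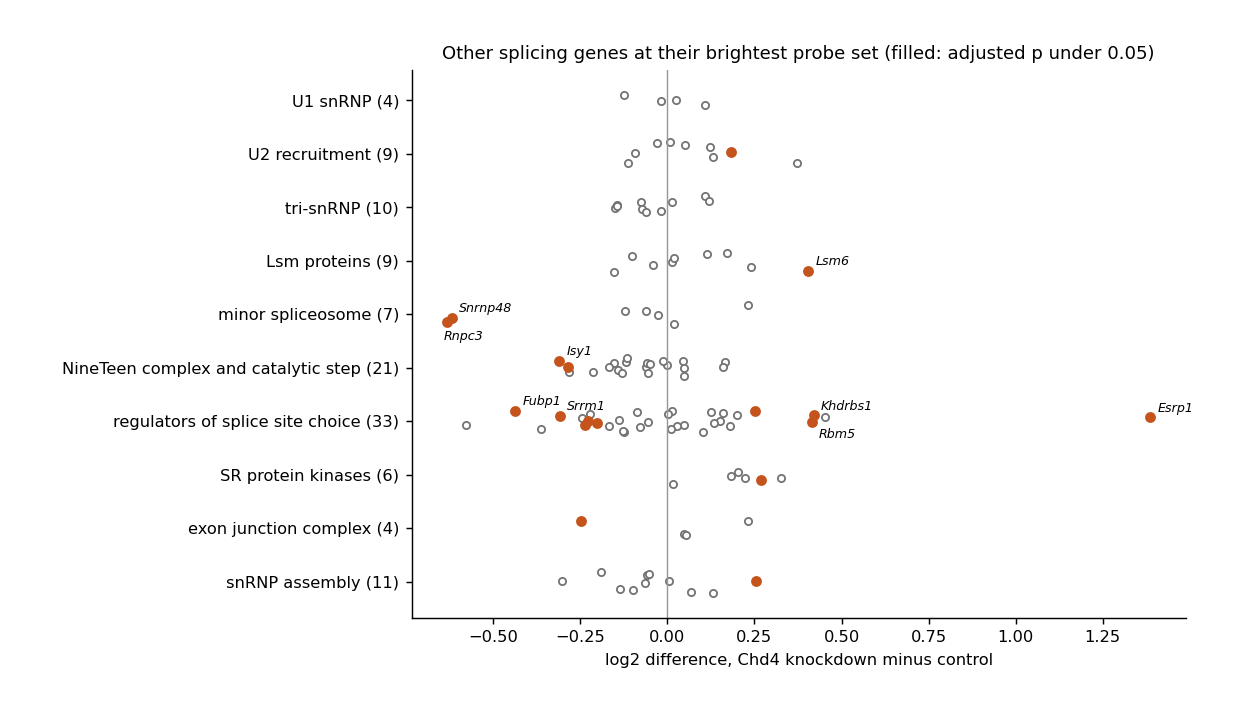
Log2 differences (knockdown minus control, horizontal axis) of the 114 tested splicing genes outside the member families, at the brightest probe set, by group with the number tested in brackets; vertical scatter within a group has no meaning. Filled points have an adjusted p under 0.05, and Esrp1, Rnpc3 and Snrnp48 lie farthest from 0.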

How the data were processed

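The authors deposited 1 array intensity per probe set on a linear scale; per the submitters' processing notes the tool was MAS5. Its version and scaling target are not given in the sources used here. Groups and replicate numbers came from the sample titles. The values of the 4 arrays were log2 transformed with no pseudocount. Names came from the platform annotation. The 58 member symbols matched RefSeq by Entrez ID with 0 updates. The 64 control probe sets were left out, and the top 60% of the others by mean log2 signal (at least 42.4) entered the test, 27022 in all. This left 6 dim member probe sets untested. Differences were tested two-sided under R 4.3.3 by limma 3.58.1, whose eBayes step let the variance follow the signal (2 residual plus 9.24 prior degrees of freedom). On simulated arrays in which nothing was changed it made 0 calls. Detection calls were not used here, and the number of arrays limits the precision. Labels do not say what a replicate number shares, so p values measure the spread between these arrays.

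The members, the gene lists and the motifs were chosen with earlier results of these data known. The test of ratios between probe sets was added after the values were seen. Any member could be named. Signals on every array were given for the 8 largest called falls, all 6 called rises, the gene called in opposite directions and the brightest members, and others where a result turned on them. Of the other splicing genes the 6 with the largest called difference in each direction were named. Repeats used another pseudocount, scaling, filter or variance model, the replicate block, a 1.2-fold minimum, no shared probe sets, averaged probe sets, and 3 arrays in place of 4. Where an array was left out, the lone array of its group was assumed to vary like the other group.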

Additional observations from a re-analysis of the deposited data

How the results depend on the processing

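Results are given as members called higher and lower, then genes called higher and lower at the brightest probe set, then other splicing genes higher and lower. They were 6 and 27, 3 and 10, and 8 and 10. Centring each array on its median gave 2 and 15, 1 and 5, and 5 and 5. Without a filter members lower were 17, genes lower 6, and other splicing genes 5 and 5. For the centred and unfiltered fits and for averaged probe sets, the share of all probe sets or genes called is not given here. Without the intensity trend limma called 0 in each and 0 of all 27022 probe sets. At an unadjusted p under 0.05 that fit had 23 members, 6 genes and 11 other splicing genes, and 5828 of all probe sets. Against a change of 1.2-fold limma called 0 and 2 members, 0 and 0 genes and 1 and 1 other splicing genes. These were 1.22% of members, against 3.15% of all probe sets. At an unadjusted p under 0.05 limma had 6, 0 and 7, and 2890 of all 27022 probe sets. Without probe sets ending in _x_at, _s_at or _a_at there were 2 and 11 members (14.1%, against 11.7% of all probe sets) and 4 and 6 other splicing genes. In that fit 9 of 24 genes agreed in sign in place of 19 of 41. With averaged probe sets 1 member gene and 2 other splicing genes were higher, and Khdrbs1 and Pcbp2 changed sign (from 0.42 to -0.067 and from 0.25 to -0.012). Leaving out each array in turn gave 1 to 8 members higher and 12 to 24 lower, 0 to 3 genes higher and 5 to 9 lower, 6 to 7 other splicing genes higher and 6 to 7 lower, 15 to 21 genes agreeing in sign and 0 to 8 changed ratios. The median member difference of -0.053 was -0.073 under quantile normalization and lay between -0.075 and -0.042 with an array left out. The 5 changed ratios became 8 in the top 40% of probe sets, 1 without a filter, 0 without the trend (11 at an unadjusted p under 0.05), 0 against 1.2-fold (8) and 0 without shared probe sets (6). With the replicate block 25 of the 33 called members stayed called and 11 ratios were. The deviations of arrays with the same number had a correlation of -0.0019, so the numbers gave no sign of pairing. The causes of these changes were not tested.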
